A study of Homo sapiens with 36 samples.

Results

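Ribosome loading was compared between ELR and EH, derivatives of the human skin fibroblast line BJ. Loading here is the change in ribosome footprints beyond the change in RNA, which shows whether the ribosomes on a message moved apart from the amount of that message. The comparison used 6 of the 36 libraries of the series: 2 footprint libraries and 1 RNA library of ELR, and 2 footprint libraries and 1 RNA library of EH. They were chosen by their labels. The labels do not spell the names out, but as background, BJ lines of this kind were built stepwise, by adding telomerase, next the SV40 early genes and last an oncogenic HRAS, so that ELR is taken as the transformed line and EH as its immortalised start. The intermediate line EL, with 2 footprint libraries and 1 RNA library, was set beside them. All were grown in the same serum-containing medium, and the other libraries of the series come from MCF10A-ER-Src, a breast epithelial line with an inducible Src kinase. Before lysis the cells were held in 100 µg/ml cycloheximide for 90 s, which stops elongating ribosomes, and RNase I then left the fragments that ribosomes cover. Harringtonine libraries of the same lines (2 µg/ml for 5 min, which holds ribosomes near start codons while others run off) are given as a second footprint measurement.

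Translation is controlled mostly where ribosomes begin. Messages for ribosomal proteins and several translation factors start with a C followed by a run of C and T (a terminal oligopyrimidine tract, TOP), and the growth-sensing kinase complex mTORC1 controls how many ribosomes they carry. ATF4, a transcription factor of the amino acid stress response, is controlled through short reading frames upstream of its own, which let ribosomes reach it when the initiation factor eIF2 is phosphorylated. ATF4 in turn switches on genes for amino acid synthesis, amino acid transport and the charging of tRNAs.

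The sequences at the starts of the messages are shown first because the genes whose loading differed belong mostly to these classes. Each line gives 10 bases before the RefSeq start and 20 from it, on GRCh38.p14 and on the gene's own strand, and capitals mark a start base C together with the C and T that follow it without a break.
RPS6, chr9:19380217-19380246, minus strand: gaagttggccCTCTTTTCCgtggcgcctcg
RPL27A, chr11:8682782-8682811, plus strand: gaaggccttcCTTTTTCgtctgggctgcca
RPL28, chr19:55385922-55385951, plus strand: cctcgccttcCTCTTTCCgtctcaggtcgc
RPL31, chr2:101002279-101002308, plus strand: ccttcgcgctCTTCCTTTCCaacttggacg
RPS25, chr11:119018324-119018353, minus strand: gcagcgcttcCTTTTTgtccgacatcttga
TPT1, chr13:45341164-45341193, minus strand: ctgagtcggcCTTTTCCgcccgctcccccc
EEF1A1, chr6:73521013-73521042, minus strand: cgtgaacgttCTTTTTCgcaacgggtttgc
RPS29, chr14:49598691-49598720, minus strand: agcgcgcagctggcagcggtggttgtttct
ATF4, chr22:39520549-39520578, plus strand: cggccacggcagccatttctactttgcccg
PSAT1, chr9:78297115-78297144, plus strand: ggggccggctgcagactctcaccgcagcgg
RPS29, ATF4 and PSAT1 are shown as messages whose RefSeq start has no such run. Of the 10843 genes tested, 9020 had a promoter entry in RefSeq.

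The second set of sequences holds the letters TGATGNAA, an 8-letter form of the element through which ATF4 and C/EBP proteins act, searched on both strands in the 250 bases before and 50 after each start. Capitals mark the match, which in CHAC1, AARS and CARS lies on the strand opposite to the gene.
ASNS, chr7:97872458-97872487, minus strand: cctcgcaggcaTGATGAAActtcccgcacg
CHAC1, chr15:40953251-40953280, plus strand: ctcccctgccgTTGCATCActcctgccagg
AARS, chr16:70289675-70289704, minus strand: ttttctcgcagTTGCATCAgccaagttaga
CARS, chr11:3057407-3057436, minus strand: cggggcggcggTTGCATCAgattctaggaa
SLC38A1, chr12:46266502-46266531, minus strand: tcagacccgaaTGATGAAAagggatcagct

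Libraries held 1178382 to 2606878 counts in the ELR and EH footprints and 2553879 and 2387917 in the ELR and EH RNA. Values are CPM, counts scaled to a common library size by the trimmed mean (TMM), so each is a share of its library, and a change of all messages together would not be seen. Because each line has 1 RNA library, BJ RNA has no spread of its own. The fit pools 1 spread per gene over 26 libraries with 12 residual degrees of freedom, in which 4 uninduced MCF10A-ER-Src RNA libraries (0 h, and ethanol for 1, 4 and 24 h) were taken as replicates and the rest of the spread comes from footprint libraries. The lone RNA libraries were assumed to vary like these. Between the 2 footprint libraries of a line, counts differed by little more than counting noise (chi-square per gene 1.11 in ELR and 1.09 in EH, where counting alone gives about 1). No label says that these were separate cultures, so this spread may be technical. The p-values rest on the spread pooled over all 26 libraries, 17 of them from MCF10A-ER-Src, and not on the BJ libraries alone. Summed fibroblast markers (12 genes) were 11710 to 11960 CPM in ELR footprints and 42980 to 44020 CPM in EH footprints. Marker sums are CPM without TMM scaling. Most of the ELR sum was VIM, with 10730 and 10960 TMM-scaled CPM in ELR and 14010 and 14260 in EH. COL1A2 had 20.2 and 24.6 in ELR and 12080 and 12340 in EH. DCN, the matrix proteoglycan decorin, had no count in ELR. Summed epithelial markers (12 genes) were 967.4 to 993.6 CPM in ELR footprints and 1277 to 1286 CPM in EH footprints. In RNA they summed to 207.9 CPM in ELR and 706.5 CPM in EH. KRT5, KRT14, CDH1 and ESRP1 were at 0 in the footprints of both lines. In RNA, however, KRT5, KRT14 and ESRP1 had counts in both lines, and CDH1 had counts in EH only. The part of these markers in the results was not tested. Endothelial and leukocyte markers summed to at most 4.60 CPM in ELR footprints and 8.49 CPM in EH footprints. In such bulk libraries, fewer cells of a type and less RNA per cell cannot be told apart.

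Between ELR and EH, 2 classes of genes made up most of the calls in loading, ribosomal proteins and genes of the amino acid stress response with the synthetases. Footprints were higher in ELR for 1938 genes (17.9% of those tested) and lower for 2191 (20.2%). Loading passed the test (edgeR quasi-likelihood, adjusted p under 0.05) for 55 genes, 28 higher in ELR (0.258%) and 27 lower (0.249%). The median log2 loading change of all genes was −0.05, with 4998 of 10843 above 0 (46.1%) and 5845 below it. Of the 28 genes with higher loading, 21 encode ribosomal proteins. Of the 27 with lower loading, 14 belong to the amino acid stress response or are aminoacyl-tRNA synthetases. The count of 55 fell to 18 without ELR replicate 1, 20 without ELR replicate 2, 18 without EH replicate 1 and 18 without EH replicate 2, and was 877 when the 9 BJ libraries alone set the spread (357 higher, 3.29%, and 520 lower, 4.8%), all 55 among them. Of 52 called genes followed one by one, 11 passed in all 4 fits that leave out a footprint library (RPS29, RPL27A, RPL28, RPL31, ATF4, PSAT1, ALDH1L2, SLC7A5, AARS, TBCK and LGALS3BP), 11 in some of them and 30 in none. Footprint to RNA ratios of the 2 ELR libraries lay above both EH libraries for 3095 genes (28.5%) and below both for 3744 (34.5%), so a gap between the libraries is common and is not by itself a result.

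**Figure D1:**
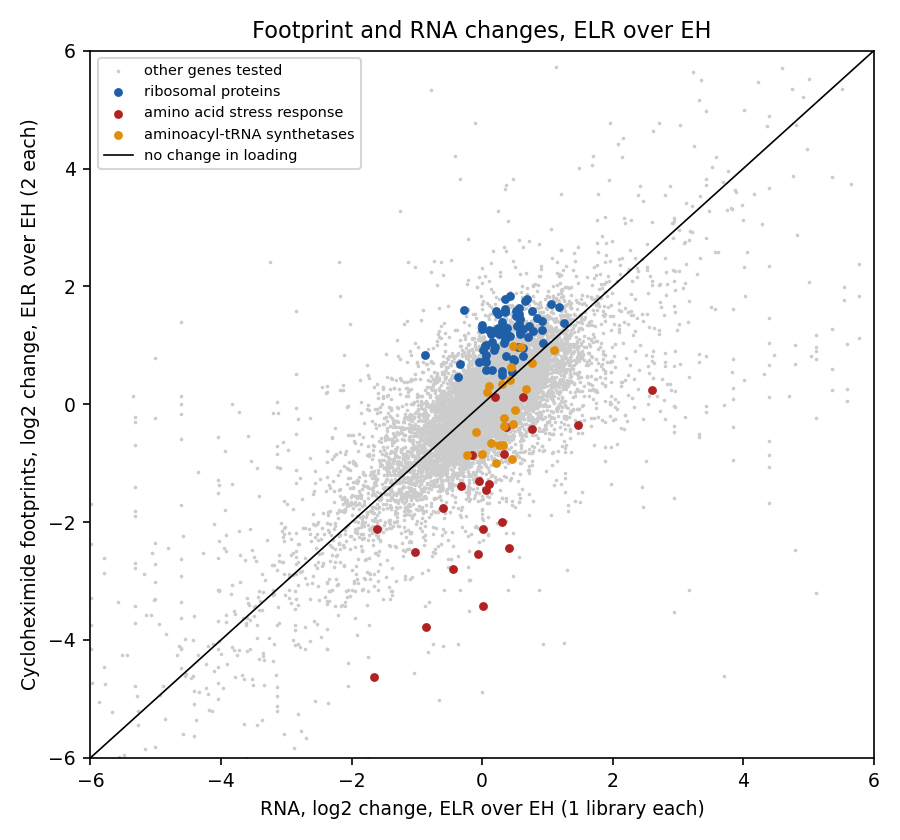
Log2 change of RNA (x axis, 1 library per line) against log2 change of cycloheximide footprints (y axis, 2 libraries per line), ELR over EH, for the 10559 of 10843 genes within 6 log2 units of 0 on both axes. Points above the diagonal have higher loading in ELR. The ribosomal proteins (blue) lie above it, and the amino acid stress genes (red) lie below it.

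Ribosomal proteins carried more footprints per RNA in ELR. All 77 tested members of the list of 79 had a log2 loading change above 0, with a median of 0.82 and a range of 0.09 (RPS2) to 1.87 (RPS29). All 77 had ratios in both ELR libraries above both EH libraries, against 28.5% of all genes. Loading was called higher for 21 of the 77, against 0.258% of all genes, and lower for 0. All 77 were called higher in footprints, with a median log2 change of 1.24, while the median log2 change of their RNA was 0.35, with no test. Many ribosomal proteins have processed pseudogenes, and the sources used here do not say how reads that match several places were counted, so single members are uncertain. The count of 21 was 6 without any 1 of the 4 footprint libraries, 37 with DESeq2 and 70 with the BJ spread.

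RPS6 (chr9:19375713-19380234 on GRCh37), the small-subunit protein that S6 kinase phosphorylates, had 3234 and 3062 footprint CPM in ELR, against 1043 and 1055 in EH, and 2394 RNA CPM in ELR against 1664 in EH. Its footprint to RNA ratios were 1.35 and 1.28 in ELR and 0.627 and 0.634 in EH. Both ELR libraries were above both EH libraries, and loading was 2.09-fold higher (log2 1.06 ± 0.22 SE, adjusted p = 0.0247, edgeR). The adjusted p was 0.0717 to 0.139 without any 1 footprint library (edgeR).

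RPL31 (chr2:101618691-101640494, GRCh37), a large-subunit protein near the exit of the peptide tunnel, had 1926 and 1866 footprint CPM in ELR and 640.2 and 642.1 in EH. RNA was 882.7 CPM in ELR and 693.3 in EH. Loading rose 2.32-fold (log2 1.22 ± 0.21 SE, adjusted p = 0.00623, edgeR), and the lines did not overlap. RPS25, a small-subunit protein whose start is printed above, had ratios of 3.32 and 3.14 in ELR and 1.32 and 1.20 in EH, a rise of 2.57-fold (log2 1.36 ± 0.29 SE, adjusted p = 0.0312, edgeR), with adjusted p = 0.0841 to 0.156 without any 1 footprint library (edgeR).

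RPL27A, of the large subunit, had almost the same RNA level in the lines, 114.4 CPM in ELR and 115.1 CPM in EH. Its footprints were 1594 and 1628 CPM in ELR, against 648.5 and 623.6 CPM in EH. The whole of its loading change (log2 1.35 ± 0.25 SE, adjusted p = 0.00872, edgeR) was therefore a change in footprints.

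RPS29 (chr14:50037702-50065882, GRCh37), a short zinc-binding protein of the small subunit, had the highest loading change of the list, 3.66-fold (log2 1.87 ± 0.32 SE, adjusted p = 0.00561, edgeR). It had 1193 and 1192 footprint CPM in ELR, against 385.0 and 402.8 in EH. Its RNA count was low, 47 in ELR and 49 in EH, so counting error in RNA bears on this gene more than on RPS6, with RNA counts of 6736 in ELR and 4035 in EH. RPL28 also had little RNA, 115 counts in ELR and 181 in EH, and its log2 loading change was 1.71 ± 0.31 (SE, adjusted p = 0.00854, edgeR).

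The called members also included RPL7A, RPL13, RPL13A, RPL15, RPL17, RPL29, RPL32, RPL39, RPS13, RPS15A, RPS19 and RPS23. Each of these 12 lost the call without any 1 footprint library. The log2 loading changes of the 21 ran from 0.86 (RPL17) to 1.87. RPL17-C18orf32, a read-through of RPL17 with its neighbour, was also called, and its reads cannot be told from those of RPL17. The 56 members that did not pass the test ranged from 0.09 to 1.44 on the log2 scale, and 49 of them passed when the BJ libraries alone set the spread. Under harringtonine the footprints of the 77 had a median log2 change of 0.68, ELR over EH, but set against the same RNA their median loading change was 0.23, with 55 of the 77 above 0 and none called.

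**Figure D2:**
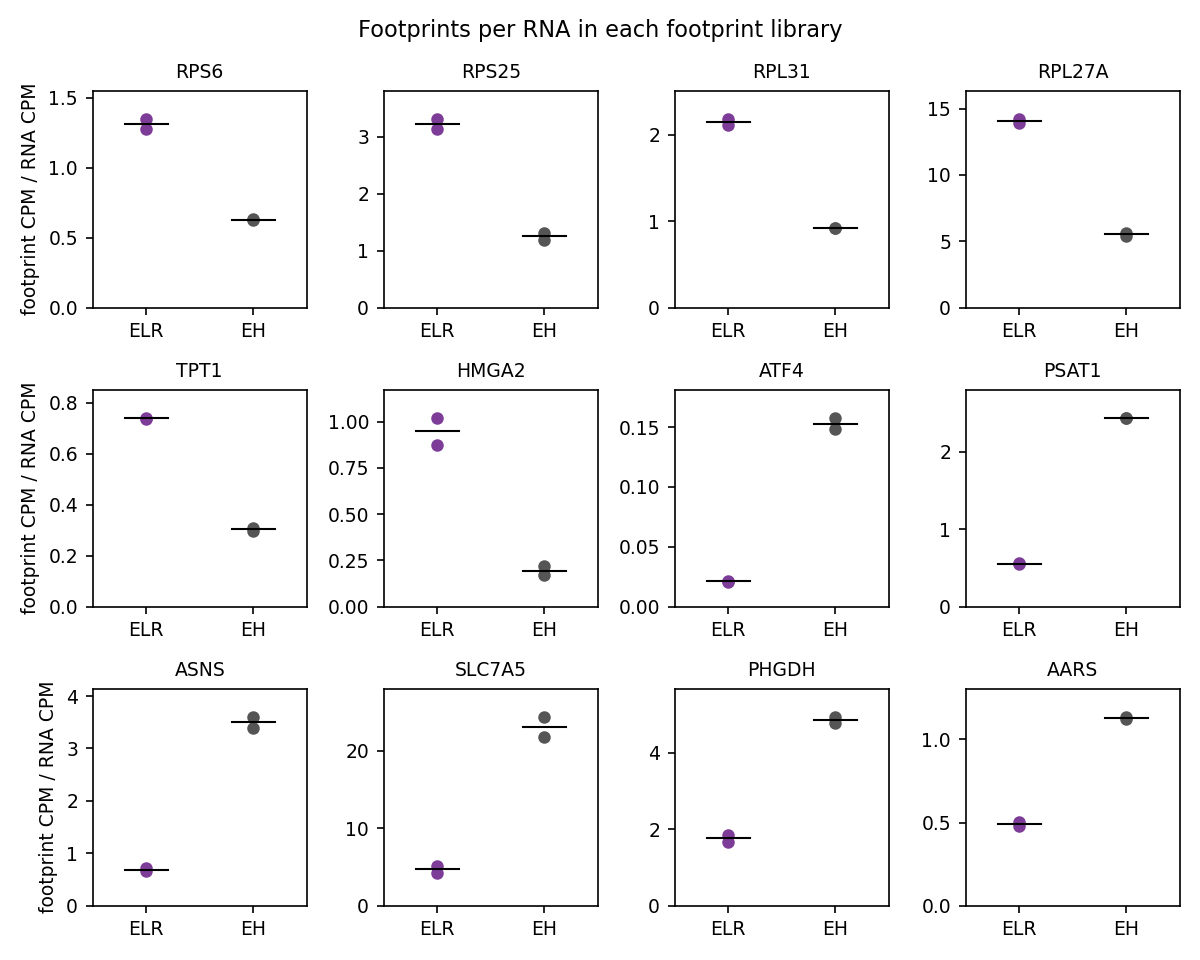
Footprint CPM divided by RNA CPM (y axis, linear from 0) in each of the 2 ELR and 2 EH footprint libraries, for 12 genes. Points are libraries, the bar is their mean, and both libraries of a line share 1 RNA library. ELR lies above EH for RPS6, RPS25, RPL31, RPL27A, TPT1 and HMGA2 and below it for ATF4, PSAT1, ASNS, SLC7A5, PHGDH and AARS.

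Ribosomal protein coding regions are short, and loading was therefore set against coding length. Among genes off the list, the median log2 loading change was −0.05 under 300 nucleotides, 0.06 from 300 to 450 and −0.27 at 6000 and over. The list stood at 0.95 under 300 nucleotides and 0.81 from 300 to 450. Off the list, 2665 genes had coding regions under 900 nucleotides, with a median log2 loading change of 0.03. Of these, 2 were called higher and 2 lower, against 0.258% and 0.249% of all genes tested. The 2 called higher were HMGA2 and RPL17-C18orf32, the read-through whose reads cannot be told from those of RPL17.

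**Figure D3:**
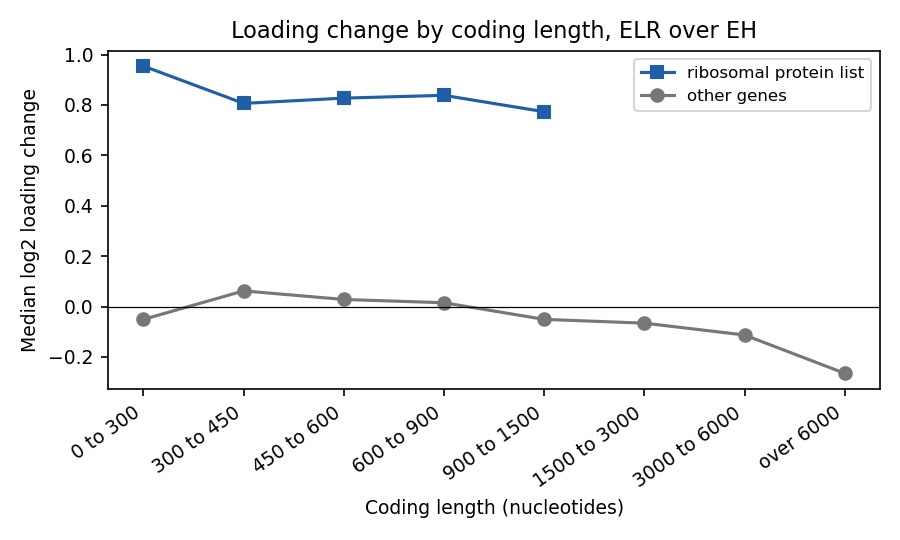
Median log2 loading change, ELR over EH (y axis), by coding length in nucleotides (x axis, classes), for the ribosomal protein list (squares) and the other genes tested (circles). Medians of the list run from 0.77 to 0.95, and those of the other genes from −0.27 to 0.06.

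Other messages of the TOP class lay mostly in the same direction with smaller values, and none was called. Of 19 tested, 17 had a log2 loading change above 0, and the median was 0.42. At an unadjusted p under 0.05, edgeR gave 4 higher (21.1%), against 362 of all genes (3.34%). DESeq2 called 1 higher, against 44 of all genes (0.406%), and the BJ spread 13, against 3.29%. Footprints were called higher for 17 of the 19, and their RNA had a median log2 change of 0.42. TPT1, the translationally controlled tumour protein, had footprint to RNA ratios of 0.736 and 0.740 in ELR and 0.297 and 0.309 in EH, a log2 loading change of 1.29 ± 0.33 (SE) that did not pass (adjusted p = 0.0945, edgeR). EEF1A1, the elongation factor that brings tRNAs to the ribosome, had a log2 loading change of 0.48 ± 0.25 (SE, adjusted p = 0.631, edgeR). For EEF2, which moves the ribosome along the message, the value was 0.27 (adjusted p = 0.873, edgeR), for the nucleolar chaperone NPM1 it was 0.24 (adjusted p = 0.855) and for the poly(A)-binding protein PABPC1 it was −0.07 (adjusted p = 0.993). Initiation factors listed as lacking a TOP tract had a median of −0.04 over 28 genes, though the starts of this list were not counted. Mitochondrial ribosomal proteins, whose messages are made in the nucleus, had 0.16 over 75, with 0 calls in either list.

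The start sequence was counted in all promoter entries: a C at the start and at least 4 more C or T after it. It was present in 42 of 62 ribosomal protein genes with an entry (67.7%), 11 of 13 other TOP genes (84.6%) and 510 of 9020 of all genes tested (5.65%). Within the ribosomal protein list, the median log2 loading change was 0.86 with this start and 0.88 without it. Among genes on neither list, 457 had the start, with a median of −0.03 and 0 called higher and 2 lower. The 8488 that lacked it had a median of −0.06, with 4 called higher and 21 lower. Of all genes tested, 0.258% were called higher and 0.249% lower. RefSeq starts are annotated positions and not measured in these cells.

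Genes of the amino acid stress response carried fewer footprints per RNA in ELR. All 23 members had a log2 loading change below 0, with a median of −1.48. For 22, the ratios in both ELR libraries were below both EH libraries, against 34.5% of all genes. Loading was called lower for 10 of them, against 0.249% of all genes, and higher for 0. Their RNA had a median log2 change of 0.02 and their footprints one of −1.46, and footprints were called lower for 17. The 10 were ATF4, PSAT1, PHGDH, MTHFD2, ALDH1L2, ASNS, CHAC1, SLC7A5, SLC3A2 and SLC1A5. The count of 10 was 5 without ELR replicate 1 or ELR replicate 2, 4 without EH replicate 1 or EH replicate 2, and 19 with the BJ spread.

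ATF4 (chr22:39915700-39918688, GRCh37) had 15.4 and 14.6 footprint CPM in ELR, against 79.0 and 84.1 CPM in EH. Its RNA was 706.8 CPM in ELR and 532.8 CPM in EH. Its footprint to RNA ratios were 0.0218 and 0.0206 in ELR and 0.148 and 0.158 in EH, 7.16-fold lower in ELR (log2 −2.84 ± 0.32 SE, adjusted p = 3.83e-05, edgeR). The value rests on 39 and 26 footprints in ELR and 104 and 91 in EH. Under harringtonine the log2 change of ATF4 footprints was 0.07, which did not pass the test (adjusted p = 0.963, edgeR). That value rests on few footprints, 7 and 9 in ELR and 5 and 3 in EH.

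Among the enzymes of serine and one-carbon metabolism, PSAT1 (chr9:80912041-80945009, GRCh37), the aminotransferase of serine synthesis, had 102.8 and 104.7 footprint CPM in ELR and 449.6 and 450.8 in EH. Its RNA was 187.6 CPM in ELR and 185.2 in EH. Loading was 4.40-fold lower in ELR (log2 −2.14 ± 0.25 SE, adjusted p = 3.83e-05, edgeR), with the 2 libraries of each line nearly equal. PHGDH, the first enzyme of that pathway, had ratios of 1.67 and 1.85 in ELR and 4.79 and 4.94 in EH (log2 −1.47 ± 0.29 SE, adjusted p = 0.0159, edgeR). MTHFD2, a mitochondrial folate enzyme, had a log2 loading change of −1.18 ± 0.24 (SE, adjusted p = 0.0218, edgeR). ALDH1L2, another mitochondrial folate enzyme, also had less RNA in ELR, 70.4 CPM against 221.1 in EH, and its footprints were 7.91 and 4.48 CPM in ELR against 163.3 and 156.1 in EH (log2 loading −2.97 ± 0.44 SE, adjusted p = 0.00214, edgeR). Without 1 footprint library, PHGDH passed in 1 of 4 fits (adjusted p = 0.0470 to 0.113, edgeR) and MTHFD2 in none (0.0540 to 0.140). SHMT2 (log2 −0.51) and PSPH (log2 −1.18), on the same pathways, did not pass the test.

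ASNS, which makes asparagine, had 37.2 and 40.9 footprint CPM in ELR, against 277.9 and 261.4 in EH, with RNA at 56.9 CPM in ELR and 77.1 in EH. Its loading was 5.11-fold lower (log2 −2.35 ± 0.52 SE, adjusted p = 0.0359, edgeR). CHAC1, which breaks down glutathione, had the lowest value of the list (log2 −3.45 ± 0.76 SE, adjusted p = 0.0357, edgeR) on few RNA counts, 27 in ELR and 23 in EH. Neither passed without any 1 footprint library (adjusted p = 0.104 to 0.182 for ASNS and 0.0938 to 0.209 for CHAC1, edgeR), and CHAC1 did not pass with DESeq2 (adjusted p = 0.122).

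The amino acid carriers followed. SLC7A5 and SLC3A2, the partners of the transporter for large neutral amino acids, had log2 loading changes of −2.30 ± 0.36 (SE, adjusted p = 0.00253, edgeR) and −1.52 ± 0.29 (SE, adjusted p = 0.0130, edgeR). SLC7A5 had 69.6 and 84.0 footprint CPM in ELR, against 287.8 and 321.5 in EH, and an RNA count of 46 in ELR and 32 in EH. SLC1A5, the glutamine carrier, had 165.7 and 191.5 footprint CPM in ELR and 593.9 and 620.8 in EH (log2 loading −1.17 ± 0.26 SE, adjusted p = 0.0402, edgeR). Without 1 footprint library, SLC3A2 passed in 1 of 4 fits (adjusted p = 0.0335 to 0.0824, edgeR) and SLC1A5 in none (0.0767 to 0.209). SLC7A11, the cystine carrier, stood at −2.49 and SLC1A4, a carrier of alanine and serine, at −2.92, and neither passed (adjusted p = 0.336 and 0.144, edgeR).

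TRIB3, a kinase-like gene that ATF4 switches on, was the exception to the separation of the lines, with a log2 loading change of −0.07. CTH and DDIT4 stood at −2.37 and −1.83 without passing, and their RNA was higher in ELR (log2 2.61 and 1.48, no test) while their footprints were not called. The list therefore holds members whose ratio is low through footprints and others whose ratio is low through RNA.

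Among the aminoacyl-tRNA synthetases, which charge tRNAs with amino acids, members lay on both sides. Of 22 tested, 16 had a log2 loading change below 0 and 6 above it, where 5845 of all 10843 genes lay below 0. Of the 22, 4 were called lower and 0 higher, and the median was −0.49. Footprints were called lower for 9 and higher for 6. AARS, the alanine enzyme, had 189.0 and 198.8 footprint CPM in ELR and 387.3 and 383.4 in EH, with RNA at 393.7 CPM in ELR and 341.1 in EH. Its loading was 2.30-fold lower (log2 −1.20 ± 0.21 SE, adjusted p = 0.00585, edgeR). CARS, YARS and GARS, for cysteine, tyrosine and glycine, had log2 loading changes of −1.39, −1.02 and −0.94 (adjusted p = 0.0109, 0.0312 and 0.0382, edgeR). The median of the list was −0.17 for footprints and 0.34 for RNA. Of all genes, 0.249% were called lower in loading, and with the BJ spread 4.8% were called lower and 3.29% higher. The count of 4 was 1 without ELR replicate 1, 2 without ELR replicate 2, 1 without EH replicate 1, 2 without EH replicate 2 and 12 with the BJ spread, which also called 1 higher. CARS passed without ELR replicate 2 or EH replicate 2 (adjusted p = 0.0224 and 0.0431, edgeR) and not without the others (0.113 and 0.0749), and YARS and GARS passed in none of the 4 fits (lowest adjusted p = 0.0885 and 0.124).

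The letters TGATGNAA were in 4 of 19 promoter entries of the amino acid stress list (21.1%), 6 of 19 of the synthetase list (31.6%), 2 of 62 of the ribosomal protein list and 144 of 9020 of all genes tested (1.60%). Of the 12 called genes of the stress and synthetase lists with an entry, 5 held them, ASNS, CHAC1, AARS, CARS and SLC3A2. The 2 ribosomal protein genes with the letters, RPL31 and RPS23, were both called higher, 2 of 17 such called genes with an entry (11.8%). A match is a description of these letters and not a site that was measured.

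Related genes outside the lists were also among the 27. SLC6A9, a glycine carrier, had 0.791 and 1.68 footprint CPM in ELR and 38.7 and 39.7 in EH, with RNA counts of 28 in ELR and 38 in EH (log2 loading −4.36 ± 0.74 SE, adjusted p = 0.00561, edgeR). SLC38A1, a glutamine carrier, had a log2 loading change of −1.17 (adjusted p = 0.0247, edgeR), and PCK2, the mitochondrial enzyme that makes phosphoenolpyruvate, −1.81 (adjusted p = 0.0134, edgeR). Without 1 footprint library, SLC6A9 passed in 3 of 4 fits (0.0984 without ELR replicate 1), and SLC38A1 (adjusted p = 0.0375 to 0.147) and PCK2 (0.0381 to 0.111) in 1 each (edgeR).

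**Figure D4:**
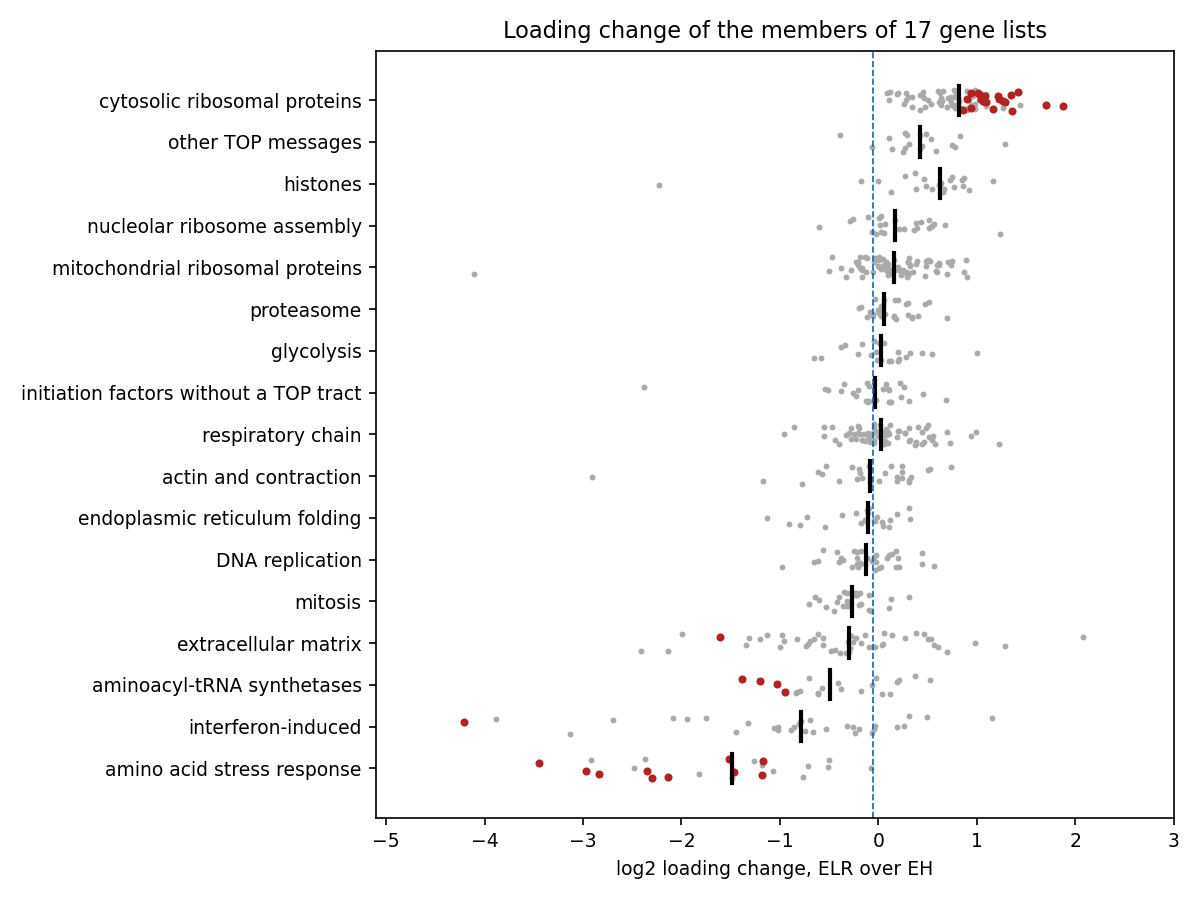
Log2 loading change, ELR over EH (x axis), of each tested member of 17 gene lists. Red points passed the test, grey points did not, black bars are medians and the dashed line is the median of all genes (−0.05). The ribosomal protein list (median 0.82) lies to the right of the line and the amino acid stress list (median −1.48) to its left.

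In EL, the intermediate line, the ribosomal proteins lay between EH and ELR for 63 of 77. Relative to EH, the median log2 ratio of footprints to RNA was 0.55 in EL and 0.82 in ELR. For the amino acid stress list it was −0.49 in EL and −1.51 in ELR, with EL between the others for 20 of 23 genes. The synthetases had −0.06 in EL and −0.50 in ELR, and EL was between for 9 of 22. Over the 10349 genes with a ratio in all libraries the medians were −0.01 in EL and −0.05 in ELR, and EL was between for 3908. Both differences share the EH libraries, and they are given as values with no test.

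**Figure D5:**
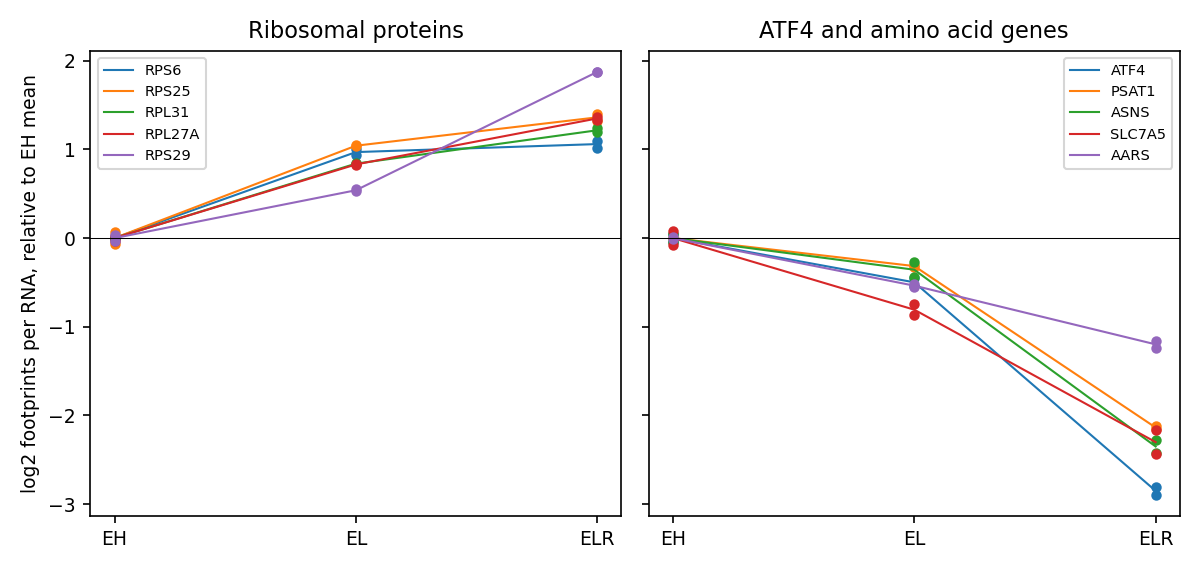
Log2 footprints per RNA relative to the EH mean (y axis) in EH, EL and ELR, for 5 ribosomal protein genes and for ATF4 with 4 amino acid genes. Points are footprint libraries, and lines join the means of the 2 libraries. RPS29 reaches 1.87 in ELR, and ATF4 lies lowest in ELR among the genes of its panel.

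Outside these classes, several calls came with a large difference in RNA. Of the 28 genes with higher loading, 5 had RNA at least 2-fold lower in ELR and 0 at least 2-fold higher. Of the 27 with lower loading, 3 had RNA at least 2-fold higher and 3 at least 2-fold lower. Over all 10843 genes tested, RNA was at least 2-fold lower for 1466 and higher for 1148, so such differences are common. PTGS2, the inducible cyclooxygenase, had 35.9 RNA CPM in ELR and 417.0 in EH, but its footprints were 28.9 and 24.6 CPM in ELR and 54.7 and 49.9 in EH, so loading was higher in ELR (log2 2.58 ± 0.60 SE, adjusted p = 0.0482, edgeR). HAS2, a hyaluronan synthase, had 27.0 RNA CPM in ELR and 223.9 in EH, with footprints at 17.8 and 16.8 CPM in ELR and 28.1 and 25.9 in EH (log2 loading 2.41 ± 0.47 SE, adjusted p = 0.0160, edgeR). SCUBE3, a secreted glycoprotein (log2 2.29, adjusted p = 0.0451, edgeR), had 12.7 and 10.1 footprint CPM in ELR and 87.3 and 83.2 in EH, a called fall, with a larger difference in RNA (7.82 CPM in ELR and 285.0 in EH). The LIM-domain protein PDLIM1 (log2 1.37, adjusted p = 0.0470, edgeR) also had footprints called lower and RNA lower by more. STEAP1, of a metalloreductase family (log2 2.42, adjusted p = 0.0373, edgeR), had 12.3 and 12.3 footprint CPM in ELR and 12.9 and 7.39 in EH, which was not called, and RNA counts of 16 in ELR and 63 in EH. None of the 5 passed without any 1 footprint library (adjusted p from 0.0534 for STEAP1 to 0.278 for SCUBE3, edgeR). SCUBE3 and PDLIM1 did not pass with DESeq2 (adjusted p = 0.101 each), and PDLIM1 not without the filter (0.0510). For each of these 5 the value rests on a difference between 2 single RNA libraries.

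TBCK (chr4:106962756-107237840, GRCh37), a kinase-like regulator of growth signalling, was the reverse case. Its RNA was 1039 CPM in ELR and 73.0 CPM in EH, and its footprints were 39.5 and 31.9 CPM in ELR against 23.5 and 25.9 CPM in EH (log2 loading −3.28 ± 0.51 SE, adjusted p = 0.00253, edgeR). EL resembled ELR in this, with 702.0 RNA CPM and 29.9 and 35.4 footprint CPM. MX1, an interferon-induced antiviral GTPase, had 23.1 RNA CPM in ELR and 4.12 in EH, and 3.56 and 3.36 footprint CPM in ELR against 8.35 and 15.7 in EH (log2 loading −4.21 ± 0.72 SE, adjusted p = 0.00561, edgeR). The EH RNA value of MX1 is 10 counts, and EL had 2530 RNA CPM. LGALS3BP, a secreted lectin-binding glycoprotein, had 122 and 128 footprint CPM in ELR and 105 and 107 in EH, with 37.0 RNA CPM in ELR and 4.95 in EH, the last from 12 counts (log2 loading −2.65 ± 0.44 SE, adjusted p = 0.00488, edgeR). MX1 did not pass without EH replicate 2 (adjusted p = 0.0863, edgeR).

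HMGA2, a chromatin protein of embryonic cells, was the called gene with higher loading outside the ribosomal proteins whose RNA was nearly level. It had 56.9 and 48.7 footprint CPM in ELR and 14.4 and 11.1 in EH, with RNA at 55.8 CPM in ELR and 65.6 in EH (log2 loading 2.27 ± 0.52 SE, adjusted p = 0.0465, edgeR). It did not pass without any 1 footprint library (adjusted p = 0.103 to 0.268, edgeR). Under harringtonine it had 12 and 5 footprints in ELR and 1 and 0 in EH, too few to pass (adjusted p = 0.130, edgeR). HRAS, the oncogene such lines are given, had 143.9 and 159.0 footprint CPM in ELR and 29.6 and 26.8 in EH, and 88 RNA counts in ELR and 34 in EH. Its loading change did not pass the test (log2 1.26 ± 0.36 SE, adjusted p = 0.165, edgeR). TERT, the catalytic part of telomerase, had a log2 loading change of −0.78 (adjusted p = 0.417, edgeR).

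Collagen and matrix messages were much lower in amount, and their loading varied in both directions. The list of 49 matrix genes had a median log2 change of −3.35 in footprints and −2.99 in RNA, and a median loading change of −0.30 with 1 call, COL1A2. Loading changes ran from −2.41 to 2.08 with 34 of 49 below 0, where 5845 of all 10843 genes were. The BJ spread called 14 lower and 6 higher, against 4.8% and 3.29% of all genes. COL1A2, a chain of type I collagen, had 20.2 and 24.6 footprint CPM in ELR, against 12080 and 12340 in EH, and 35.9 RNA CPM in ELR against 6470 in EH (log2 loading −1.61 ± 0.27 SE, adjusted p = 0.00894, edgeR), which did not pass without ELR replicate 1 (adjusted p = 0.113). Its partner COL1A1 had a log2 loading change of −0.48 (adjusted p = 0.801) and FN1, fibronectin, one of 0.57 (adjusted p = 0.831). Further genes on no list were lower in loading: TM4SF1, a tetraspanin-like surface protein (log2 −1.60), LTBP3, which binds latent TGF-beta (log2 −1.88), the focal adhesion protein TES (log2 −2.14) and the scaffold protein IQGAP3 (log2 −1.36), with adjusted p = 0.0130, 0.0225, 0.0109 and 0.0413 (edgeR). NIPAL3 (log2 −1.47) and the retinol dehydrogenase RDH10 (log2 −2.71) complete the 27. The value of RDH10 rests on 8 and 6 footprints in ELR and on RNA counts of 16 in ELR and 71 in EH. Its RNA was lower in ELR as well (log2 −2.35, no test). TES had 22 and 9 footprints in ELR. Of these 6, TM4SF1, LTBP3 and TES each passed in 2 of the 4 fits without 1 footprint library (highest adjusted p = 0.0703, 0.150 and 0.0863, edgeR), and IQGAP3, NIPAL3 and RDH10 in none (lowest 0.113, 0.0940 and 0.0800). NIPAL3 did not pass with DESeq2 (adjusted p = 0.207).

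Further gene groups showed no call or 1. Histones had a median log2 loading change of 0.63 over 24 genes, 22 of them above 0, and were not called. With the BJ spread 12 were called higher, where 3.29% of all genes were. Mitosis genes had a median of −0.27, with 26 of 29 below 0 and likewise no call. With the BJ spread 12 were called lower, where 4.8% of all genes were. Interferon-induced genes had a median of −0.79, with 28 of 33 below 0 and a median RNA change of 1.21. Medians lay within 0.2 of 0 for the respiratory chain (0.02), the proteasome (0.06), glycolysis (0.03), DNA replication (−0.13), protein folding in the endoplasmic reticulum (−0.11), actin and contraction (−0.08), nucleolar ribosome assembly (0.17), heat shock proteins (0.00), cell cycle control (−0.06), sterol and fatty acid synthesis (−0.06), iron-regulated genes (−0.16), MAPK output (0.19) and inflammatory mediators (0.18). Messages with regulatory upstream reading frames had a median of −0.11 over 19 genes, with ATF4 as the 1 call. Immediate-early genes had a median of 0.29 over 15. Single genes with log2 loading changes near 0 included GAPDH (0.11), VIM (0.05), MYC (−0.07), CCND1 (−0.07), ODC1 (−0.11), AMD1 (0.12) and FTH1 (0.10), none of which passed the test, and ACTB stood at 0.24 and the iron-storage gene FTL at 1.01 (adjusted p = 0.297, edgeR).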

How the data were processed

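The authors deposited 1 table of read counts per library, with 36499 transcript rows of RefSeq accessions. Reads were aligned with TopHat to hg19, per the submitters' processing notes, and the counting program, the annotation release and the counted region are not given in the sources used here. From these deposited counts, 1 row per symbol was kept, that with the highest mean count over the 6 ELR and EH libraries (7636 of 19137 symbols had several rows). Genes passing filterByExpr (minimum count 10, total 15) in the 6 libraries were tested, 10843 in all. edgeR 4.0.16 (R 4.3.3) fitted 26 cycloheximide and RNA libraries of BJ and MCF10A-ER-Src with 1 mean per arm and 12 residual degrees of freedom, and TMM factors were computed within each cell model. The loading contrast was footprints minus RNA, ELR minus EH, two-sided, with Benjamini-Hochberg adjustment over all genes, and SE is the log2 change divided by the root of F. No adjustment over a list alone was made. The biological coefficient of variation was 12.0% over the fit, 1.81% in the BJ footprints and 14.6% in the uninduced MCF10A-ER-Src RNA. DESeq2 1.42.0 was an alternative.

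Gene positions are from GENCODE on GRCh37, and start sequences from RefSeq on GRCh38.p14. The members and lists were chosen with earlier results of these data known. Named genes were of 3 kinds: the 12 largest changes in each direction, up to 3 called members per list, and a fixed set. The 12 were called genes above the median count with at least 20 counts in each RNA library. Their footprint to RNA ratios also had to show no overlap between the lines, which held for all 28 genes called higher and all 27 called lower. Other genes were named after their values were seen, to complete the called genes or a list. Some called genes are counted in the totals but not reported here by name. In counts simulated from these libraries, 88 of 100 genes changed 4-fold and 20 of 100 changed 2-fold were recovered, with 12 false calls in all, among 10739 genes. The changed genes were drawn from those with a mean of at least 50 counts in the 6 libraries, so recovery at lower counts was not tested. Counts were drawn with the spread of the fit, so the simulation cannot check the spread assumed for the lone RNA libraries. Depth limits the precision of single RNA values, and no interval was computed for them.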

Additional observations from a re-analysis of the deposited data

How the results depend on the processing

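The count of 55 genes (28 higher, 27 lower) depended most on which libraries set the spread. With the 9 BJ libraries alone it was 877 (357 higher, 520 lower), and with the 6 ELR and EH libraries 906 (392 higher, 514 lower). In both, the spread comes from footprint libraries alone, since RNA has 1 library per line. DESeq2 called 75 (44 higher, 31 lower), RLE size factors 62, no filter 65, and a minimum mean count of 50 gave 58. Leaving out 1 footprint library gave 18 to 20 calls, 6 to 6 higher and 12 to 14 lower. Harringtonine footprints in place of cycloheximide ones gave 0 of 5695 (edgeR), with 396 (6.95%) at an unadjusted p under 0.05, against 906 of 10843 (8.36%) under cycloheximide. These libraries held 129354 to 215134 counts, and the cause of the lost calls was not tested. All 55 kept their sign in every cycloheximide alternative in which they were tested, and 44 of 48 did under harringtonine. RPL39 (log2 −0.48), for example, turned round there. The median log2 loading change of the ribosomal protein list ran from 0.81 to 0.88 in the cycloheximide alternatives and was 0.23 under harringtonine, and that of the amino acid stress list ran from −1.65 to −1.41 and was −0.96.

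The replicate numbers did not pair the libraries, since deviations of same-numbered footprint libraries correlated at 0.0300 between ELR and EH, and the fit with the replicate block called 60 genes, 30 higher and 30 lower, of which 52 were among the 55. RPL13A, NIPAL3 and PTGS2 lost the call with the replicate block (adjusted p = 0.0528 each, edgeR), NIPAL3 and GARS without the filter (0.0732 and 0.0529), and NIPAL3 and IQGAP3 with RLE size factors (0.0531 and 0.0526).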
